A study of Mus musculus with 24 samples.

Results

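Livers of 3 JNK knockout mice killed 28 days after bile duct ligation were compared with livers of 3 JNK knockout mice killed 40 days after diethylnitrosamine (DEN), across 18820 genes. The 6 livers were all those titled as JNKΔhepa double knockouts under each injury, out of 24 livers in 8 groups of 3. Both groups carried the same alleles: by the growth protocol a floxed Jnk1 gene (Jnk1 LoxP/LoxP) with Alb-Cre, which deletes in hepatocytes, and Jnk2-/-, on a C57BL/6 background. The series description writes both deletions as hepatocyte deletions, whereas the growth protocol names mice deficient in Jnk2. Cells in which Alb-Cre is not active kept Jnk1. The mouse identifiers differ, so that replicates were separate animals, with 1 array for each. The labels used here give neither the age nor the sex of the injured mice, nor the dose of DEN. Livers labelled control, 3 after each injury and at the same times, were set beside them. The series holds no uninjured JNK knockout liver. A gene higher after ligation than after DEN can therefore stand for a rise after one injury or a fall after the other. The injury, the time since it and the cohort of mice cannot be told apart. By the sex-linked RNAs given below, DEN replicate 3 also differed from the other livers of both groups.

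Bile duct ligation blocks the outflow of bile. Bile acids accumulate, bile ducts proliferate, stellate cells and portal fibroblasts deposit collagen, and hepatocytes secrete acute phase proteins. DEN is activated by cytochrome P450 in hepatocytes to a DNA-alkylating agent and is used to start liver tumours. The stress-activated kinases JNK1 (gene Mapk8) and JNK2 (gene Mapk9) phosphorylate c-Jun, a member of the AP-1 transcription factor. Values below are log2 expression levels, on which a difference of 1 is a change of 2-fold. A difference is ligation minus DEN, with its standard error (SE) from limma, and a gene was called at a Benjamini-Hochberg adjusted p under 0.05 over all 18820 genes.

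The 3 ligated livers resembled each other more closely than the 3 DEN livers did. Across all 35556 probe sets, arrays of ligated livers correlated with r between 0.986 and 0.987, and arrays of DEN livers with r between 0.966 and 0.979. The SD within a group had a median over all genes of 0.124 after ligation and 0.191 after DEN. DEN replicate 2 stood apart, with 639 genes at least 1 log2 unit above both other DEN livers, against 64 for replicate 1 and 71 for replicate 3. DEN replicate 1 stood apart on the low side, with 272 genes at least 1 log2 unit below both others, against 93 for replicate 2 and 49 for replicate 3. In ligated livers these numbers lay between 4 and 15. Among these genes were Gpc3, an oncofetal proteoglycan, at 10.19 in replicate 2 against 5.20 and 3.62, and Spink1, a secreted trypsin inhibitor raised in liver tumours, at 9.30 against 3.19 and 2.96. Epcam, an adhesion protein of bile duct cells, was at 8.81 in DEN replicate 2 against 4.26 and 5.33, and above its 6.01 to 6.81 in ligated livers. Ccl17, a chemokine of dendritic cells, was at 9.80 there against 3.58 and 4.84. DEN replicate 3 stood apart in another way. Xist, the RNA that coats the inactive X chromosome, was at 10.38 in it and at 3.87 and 2.35 in DEN replicates 1 and 2. The Y-linked Uty was at 2.81 in DEN replicate 3 against 6.66 and 6.39, and Eif2s3y, also Y-linked, at 2.80 against 7.80 and 7.01. In ligated livers Xist lay between 2.39 and 2.66 and Uty between 6.63 and 6.88. By these RNAs the ligated livers and DEN replicates 1 and 2 had the pattern of males, and DEN replicate 3 that of a female. Sult3a1, a sulfotransferase of female mouse liver, was at 9.02 in that liver against 2.51 and 1.80. Hsd3b5, a steroid dehydrogenase of male mouse liver, was at 2.51 there against 8.20 and 7.29, and between 1.96 and 2.20 in the ligated livers. For the main gene lists the counts below are given without each DEN liver too, and for other lists where they moved most. Over all 18820 genes, 141 were higher and 89 lower without DEN replicate 1. Without replicate 2 these numbers were 836 and 490, and without replicate 3 they were 73 and 24. The part of these livers in the other values was not tested.

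**Figure D1:**
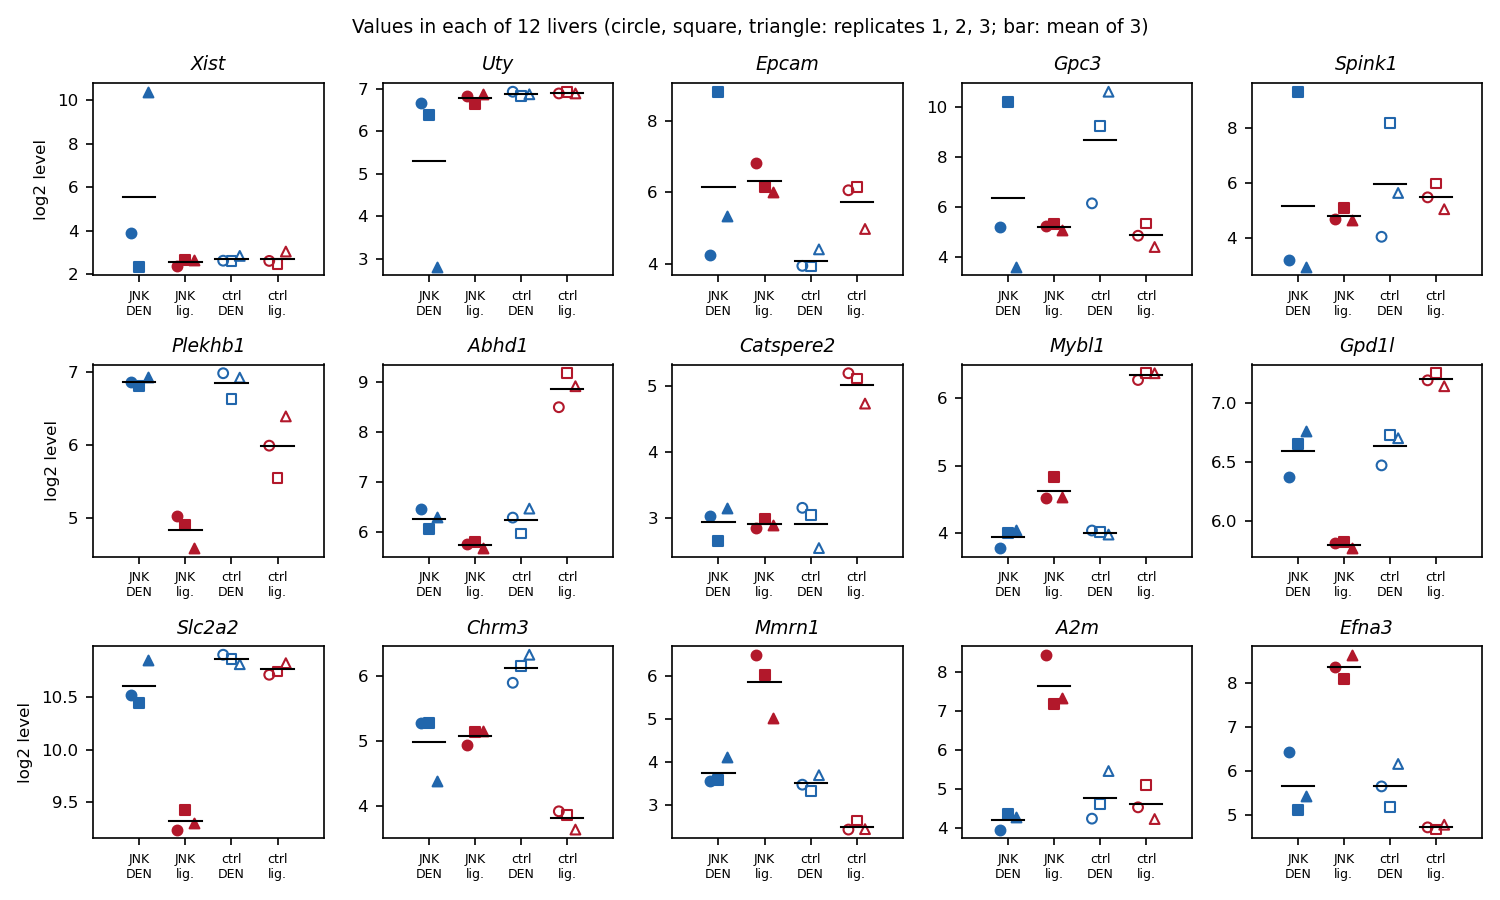
Log2 level of 15 genes in each of 12 livers, in the columns JNK knockout after DEN, JNK knockout after ligation, control after DEN and control after ligation; circles, squares and triangles are replicates 1, 2 and 3, and bars are means of 3. The upper row shows JNK DEN replicate 3 apart for Xist (10.38) and Uty (2.81) and JNK DEN replicate 2 apart for Epcam, Gpc3 and Spink1. Plekhb1 was low in all 3 ligated JNK livers. The other 9 panels are the genes whose difference between injuries differed between JNK knockouts and livers labelled control.

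The targeted genes did not separate the injuries. Mapk8 was at 5.91, 5.98 and 5.76 after DEN and at 5.41, 6.00 and 5.67 after ligation. The difference was -0.19 (SE 0.17, 95% interval -0.59 to 0.20, limma adjusted p = 0.689). Livers labelled control lay higher, between 6.36 and 6.63 after DEN and between 6.55 and 6.84 after ligation. Mapk9 was at 3.23, 2.92 and 3.05 after DEN and at 3.23, 3.26 and 2.96 after ligation, a difference of 0.08 (SE 0.14, limma adjusted p = 0.858). Mapk9 was as low in the livers labelled control, at 2.91 to 3.41 after DEN and 3.06 to 3.13 after ligation, whereas the means of both 8-week NEMO groups of the series were 8.34 and 8.39. Its level therefore does not tell the JNK knockouts from the livers labelled control. Ikbkg, which encodes NEMO and was not targeted here, differed by 0.04 (SE 0.18, limma adjusted p = 0.959).

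After ligation 145 genes were higher than after DEN (0.77% of those tested) and 59 were lower (0.313%), 204 in all (1.08%). Of these, 104 were higher and 39 lower by at least 2-fold. Without adjustment 2530 genes had a limma p under 0.05, 1404 of them higher after ligation. The median difference of all genes was 0.003. The groups did not overlap for 3743 genes (19.9%), in 1975 with ligation higher (10.5%) and in 1768 with ligation lower (9.39%), and every called gene was among them. For 72.5% of the called genes the SD was larger among DEN livers than among ligated livers. This share was not counted over all genes, whose median SD was also larger after DEN, so it cannot be read as particular to the called genes. The counts depended on single livers. Without DEN replicate 2 there were 836 genes higher and 490 lower, and all 204 were among them. Without DEN replicate 3 there were 73 higher and 24 lower, 66 of them shared with the 204. Without DEN replicate 1 there were 141 and 89, with 143 shared. Leaving out a ligated liver left 7 higher and 3 lower (replicate 1), 14 and 2 (replicate 2), or 2 and 1 (replicate 3). When the spread was taken from all 12 injured livers, 194 were higher and 84 lower, and 106 and 41 without DEN replicate 3. Saa3, an acute phase protein, and Plekhb1, a membrane-associated protein with a pleckstrin homology domain, stayed called whichever of the 6 livers was left out.

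**Figure D2:**
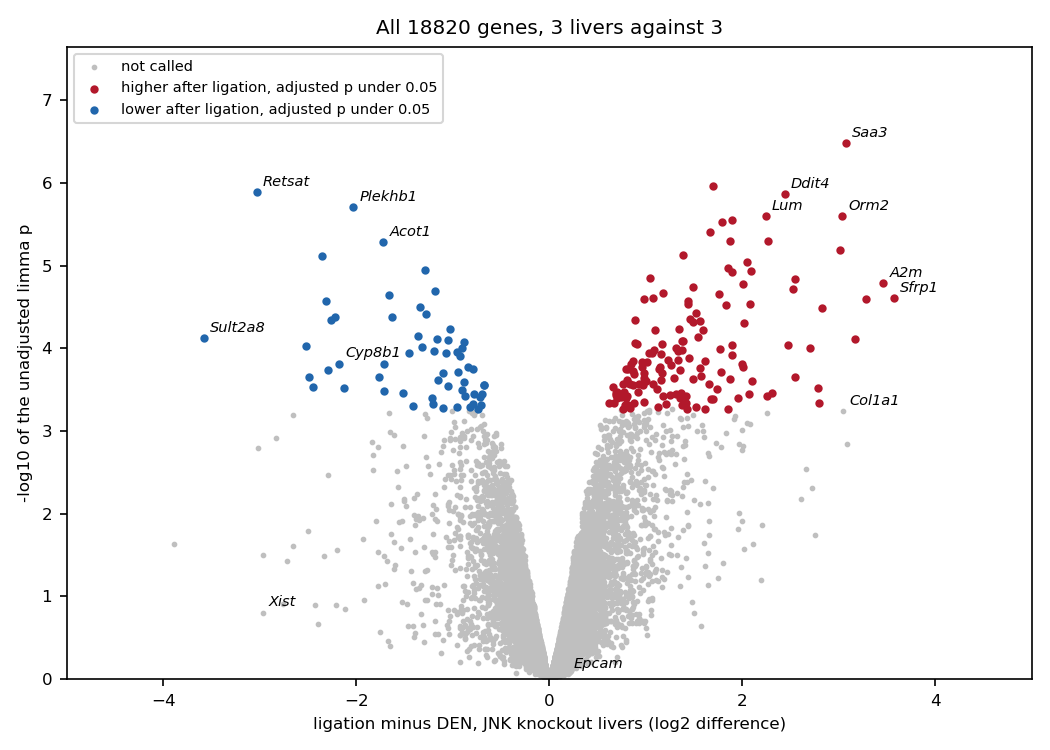
Difference between ligated and DEN-treated JNK knockout livers (x axis, log2) against -log10 of the unadjusted limma p (y axis) for 18820 genes, 1 point per gene, n = 3 livers a group. Red points are the 145 genes higher after ligation and blue points the 59 lower; Saa3, Retsat, Ddit4 and Plekhb1 lie at the top, while Xist and Epcam, each far apart in 1 DEN liver, lie near the bottom.

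Among called genes without overlap, the largest rise was that of Sfrp1, which encodes a secreted inhibitor of Wnt signalling. Sfrp1 was at 3.94, 3.89 and 5.19 after DEN and at 8.22, 7.91 and 7.61 after ligation, 11.9-fold higher (difference 3.57, SE 0.36, limma adjusted p = 0.0137). A2m, the broad protease inhibitor alpha-2-macroglobulin, was at 3.97, 4.36 and 4.29 after DEN and at 8.45, 7.19 and 7.35 after ligation (difference 3.46, SE 0.33, limma adjusted p = 0.0126). Gpnmb, a glycoprotein of phagocytic and lipid-laden macrophages, was at 4.95, 5.59 and 4.54 and rose to 8.44, 8.74 and 7.75 (3.28, SE 0.33, limma adjusted p = 0.0137). All 3 ligated livers lay more than 2 log2 units above every DEN liver for these genes. Chil1, a chitinase-like protein secreted by macrophages and neutrophils, was at 3.70, 3.93 and 4.86 after DEN and at 7.77, 6.67 and 7.56 after ligation (3.17, SE 0.38, limma adjusted p = 0.0237). Lpl, lipoprotein lipase, was at 7.35, 8.89 and 7.73 after DEN and at 10.48, 10.63 and 10.53 after ligation (2.55, SE 0.37, limma adjusted p = 0.0342). Ddit4, an inhibitor of mTORC1 induced by stress, was at 5.50, 5.29 and 5.55 after DEN and at 7.59, 8.07 and 8.01 after ligation, 5.43-fold higher (limma adjusted p = 0.0062). Gadd45g, a stress gene related to the p53 target Gadd45a, was at 6.31, 5.82 and 7.14 after DEN and at 8.94, 8.91 and 8.85 after ligation, 5.56-fold higher (limma adjusted p = 0.0245). The ligated livers were nearly level for Gadd45g and Lpl, and the DEN livers carried the spread.

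Among called genes without overlap, the largest fall was that of Sult2a8, a sulfotransferase that sulfates bile acids in mouse liver. Hsd3b5, given above, had a larger difference of -3.89 but was not called, with DEN replicate 3 close to the ligated livers. Sult2a8 was at 11.18, 10.12 and 10 after DEN and at 6.93, 7.53 and 6.11 after ligation, 11.9-fold lower (-3.58, SE 0.43, limma adjusted p = 0.0237). Retsat, which saturates retinol, was at 10.68, 10.06 and 10.12 after DEN and at 7.13, 7.49 and 7.15 after ligation, 8.17-fold lower (-3.03, SE 0.20, limma adjusted p = 0.0062). Both genes were high in every DEN liver and low in every ligated liver. Fitm1, a protein of lipid droplet formation, was at 10.80, 9.67 and 9.61 after DEN and at 7.36, 7.59 and 7.59 after ligation (-2.52, SE 0.31, limma adjusted p = 0.0248). Inhbe, the activin E subunit secreted by hepatocytes, was at 9.72, 9.18 and 9.59 after DEN and at 6.83, 7.23 and 7.38 after ligation (-2.35, SE 0.20, limma adjusted p = 0.00889). Car3, carbonic anhydrase 3 of hepatocytes and fat, was at 12.80, 11.86 and 12.55 after DEN and at 10.03, 10.19 and 10.04 after ligation (-2.31, SE 0.24, limma adjusted p = 0.0137). Sucnr1, the succinate receptor, fell by 2.26 (SE 0.25, limma adjusted p = 0.0176) and Ces1f, a carboxylesterase, by 2.13 (SE 0.32, limma adjusted p = 0.0382). Plekhb1 was at 6.86, 6.80 and 6.93 after DEN and at 5.03, 4.91 and 4.59 after ligation (-2.03, SE 0.14, limma adjusted p = 0.0062). Several of the named genes have close relatives in the mouse genome, among them the Saa, Orm, Sult2a, Acot, Cyp2c, Cyp4a and Oas genes, and probes shared between relatives could mix their signals.

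**Figure D3:**
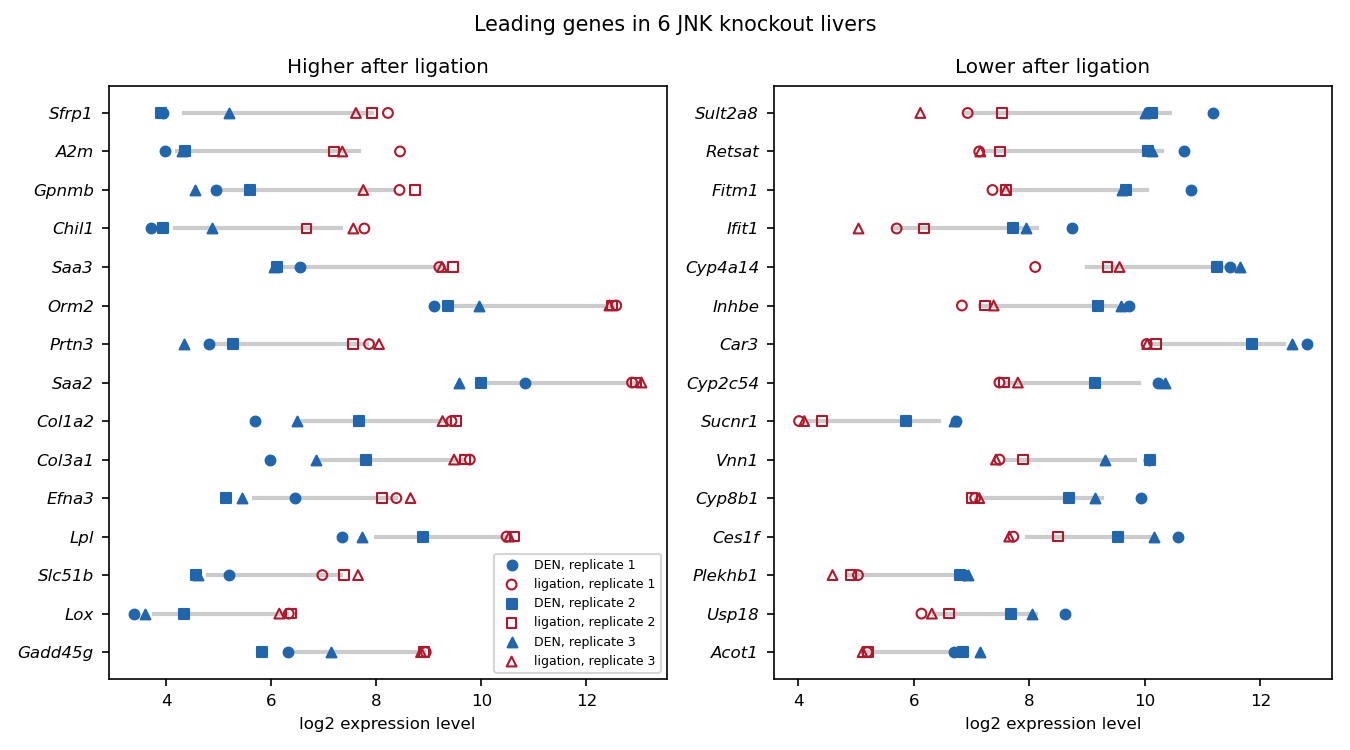
Log2 level in 6 JNK knockout livers of the 15 largest rises (left) and 15 largest falls (right) among called genes whose groups do not overlap. Blue filled symbols are DEN livers, red open symbols ligated livers, circle, square and triangle are replicates 1, 2 and 3, and grey bars join the group means. The choice of genes required that the ligated livers lie apart from the DEN livers.

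Promoters of the leading genes were searched for the AP-1 motif TGANTCA, to which c-Jun dimers bind, and for the motif CAAAGTCCA of HNF4, a hepatocyte transcription factor. The windows ran from 250 bases before the start site to 50 after it, on both strands, in the RefSeq promoter table of build GRCm38.p6. Of 32851 promoters in the table, 7.81% held TGANTCA and 0.475% held CAAAGTCCA. Among the 4 largest of these rises Gpnmb and Chil1 had an entry, and among the 4 largest falls Sult2a8, Retsat, Fitm1 and Ifit1. Gpnmb (chr6:49036268-49036537, plus strand) is shown as a gene that rose and Retsat (chr6:72598352-72598621, plus strand) as one that fell, each up to 20 bases past the start site, with matches in capitals.
Gpnmb: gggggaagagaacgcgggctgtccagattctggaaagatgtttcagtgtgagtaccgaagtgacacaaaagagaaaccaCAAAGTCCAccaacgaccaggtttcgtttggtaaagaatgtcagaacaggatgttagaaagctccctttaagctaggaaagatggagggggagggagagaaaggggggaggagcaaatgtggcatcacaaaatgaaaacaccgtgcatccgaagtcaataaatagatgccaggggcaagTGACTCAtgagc
Retsat: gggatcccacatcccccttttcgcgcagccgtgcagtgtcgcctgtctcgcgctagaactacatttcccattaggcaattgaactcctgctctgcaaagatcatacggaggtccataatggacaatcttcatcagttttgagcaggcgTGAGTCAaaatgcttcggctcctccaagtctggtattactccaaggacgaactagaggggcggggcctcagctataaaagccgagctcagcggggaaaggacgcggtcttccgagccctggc
In Gpnmb, TGACTCA began 8 bases after the start site and CAAAGTCCA 171 bases before it, and in Retsat, TGAGTCA began 102 bases before it. One of 2 Sult2a8 entries held TGAATCA, beginning 6 bases before its start site. Neither motif's letters occurred in the windows of Chil1, Fitm1 and Ifit1. A match is a description of the sequence, and binding was not measured.

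Genes of fibrosis and of stellate cells, the collagen-producing cells of the liver, were higher after ligation. Of 37 measured, 11 rose and 0 fell, where 0.77% of all genes rose. The median difference of the 37 was 1.14, against 0.003 for all genes, and 36 had a difference above 0. Ligation was higher without overlap for 32 of them, as it was for 10.5% of all genes. Lum, the collagen-binding proteoglycan lumican, was at 5.73, 6.25 and 6.00 after DEN and at 8.23, 8.38 and 8.09 after ligation (2.24, SE 0.16, limma adjusted p = 0.0062). Lox, which crosslinks collagen, was at 3.38, 4.34 and 3.60 after DEN and at 6.33, 6.37 and 6.15 after ligation (2.52, SE 0.25, limma adjusted p = 0.0134). Col3a1 was at 5.98, 7.81 and 6.85 after DEN and at 9.78, 9.69 and 9.48 after ligation (2.78, SE 0.42, limma adjusted p = 0.0382). Col1a2 was at 5.68, 7.66 and 6.49 after DEN and at 9.43, 9.51 and 9.26 after ligation (2.79, SE 0.45, limma adjusted p = 0.0468). For both collagens DEN replicate 1 was the lowest and DEN replicate 2 the highest of the DEN livers. Col1a1, the partner chain of Col1a2, showed the same order at 5.86, 8.09 and 6.57 against 9.87, 9.93 and 9.84, with a larger difference of 3.04 (SE 0.51) and a limma adjusted p of 0.0513. Acta2, smooth muscle actin of activated stellate cells, was at 6.86, 7.77 and 7.26 after DEN and at 9.42, 9.20 and 9.32 after ligation (2.02, SE 0.23, limma adjusted p = 0.0179). Col5a2, Loxl1, Pdgfra, Cygb, Eln and Col5a1 rose by 0.66 to 1.83. Lrat, which stores retinol esters in quiescent stellate cells, was the 1 member with a difference below 0, at 7.61, 7.47 and 7.79 after DEN and 6.64, 7.15 and 6.86 after ligation (-0.74, limma adjusted p = 0.10). Among 18 matrix proteases and their inhibitors 2 rose. These were Timp1, an inhibitor of matrix proteases, which rose by 2.00 (SE 0.27, limma adjusted p = 0.0296), and Mmp8, the neutrophil collagenase, by 1.61 (SE 0.27, limma adjusted p = 0.0499). Without DEN replicates 1, 2 and 3 the risen proteases and inhibitors numbered 0, 12 and 1. Among 19 TGF-beta and PDGF signals 1 rose and 1 fell, where 0.313% of all genes fell, and the median was 0.21. Tgfb3, a fibrogenic ligand, rose by 1.38 (SE 0.17, limma adjusted p = 0.0237), and Inhbe, given above, fell. Tgfb1 differed by 0.31 (limma adjusted p = 0.812). Without DEN replicates 1, 2 and 3 the risen signals numbered 1, 5 and 0. The count of 11 fibrosis genes became 8 without DEN replicate 1, 30 without DEN replicate 2, 4 without DEN replicate 3 and 0, 1 and 0 without ligated replicates 1, 2 and 3. In whole liver, fewer cells of a type and less RNA per cell cannot be told apart.

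Acute phase proteins, which hepatocytes secrete in response to interleukin-6 and interleukin-1, were higher after ligation. Of 24 measured, 6 rose and 0 fell, where 0.77% of all genes rose. The median difference was 0.88, and ligation was higher without overlap for 21, where it was so for 10.5% of all genes. Saa3 was at 6.54, 6.11 and 6.04 after DEN and at 9.20, 9.46 and 9.25 after ligation, 8.41-fold higher (3.07, SE 0.16, limma adjusted p = 0.0062). Orm2, an orosomucoid, was at 9.09, 9.36 and 9.96 after DEN and at 12.57, 12.49 and 12.44 after ligation, 8.17-fold higher (3.03, SE 0.22, limma adjusted p = 0.0062). Saa2, a serum amyloid A carried on lipoproteins, was at 10.84, 10 and 9.58 after DEN and at 12.87, 12.95 and 13.05 after ligation (2.82, SE 0.30, limma adjusted p = 0.0145). Apcs, serum amyloid P, was at 9.85, 9.67 and 10.26 after DEN and at 11.83, 11.70 and 11.78 after ligation (1.85, SE 0.16, limma adjusted p = 0.0107). Lcn2 rose by 1.70 and Itih3 by 0.93. The fibrinogen genes, Hp and Hpx had differences of 0.20 to 0.89 and none was called. Hamp, the iron hormone hepcidin, and Il6ra had a difference of -0.16 each. The 6 became 5, 9 and 6 without DEN replicates 1, 2 and 3 and 1, 2 and 1 without ligated replicates 1, 2 and 3. Complement and coagulation factors, also made by hepatocytes, had 0 called genes among 25 and a median difference of 0.10, with 2 higher without DEN replicate 1 and 1 lower without DEN replicate 2.

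Genes of neutrophils were higher after ligation, with 5 of 14 risen, 0 fallen and a median difference of 1.60. Ligation was higher without overlap for 11 of the 14. Over all genes the shares were 0.77% risen and 10.5% higher without overlap. S100a9, a subunit of calprotectin, was at 5.25, 5.97 and 6.44 after DEN and at 8.09, 7.89 and 7.52 after ligation (1.95, SE 0.31, limma adjusted p = 0.0428). Ltf, the granule protein lactoferrin, was at 3.98, 4.14 and 4.82 after DEN and at 6.39, 5.69 and 6.09 after ligation (1.74, SE 0.26, limma adjusted p = 0.0393). Elane, neutrophil elastase, was at 4.21, 4.10 and 4.27 after DEN and at 4.85, 5.06 and 5.30 after ligation (0.88, SE 0.14, limma adjusted p = 0.0472). The other called members were Mmp8 and Lcn2, which hepatocytes also make. Prtn3, the granule protease proteinase 3, was on no list and had the largest rise of a granule gene, from 4.81, 5.27 and 4.34 to 7.86, 7.55 and 8.05 (3.01, SE 0.25, limma adjusted p = 0.00868). S100a8, the other calprotectin subunit, lay at 4.84, 5.27 and 6.36 against 7.70, 7.31 and 7.48 with a limma adjusted p of 0.0638. The mean level of 5 neutrophil markers was 4.49, 5.33 and 5.97 in DEN livers and 7.31, 6.89 and 7.02 in ligated livers. Without DEN replicates 1, 2 and 3 the risen members numbered 2, 10 and 5, and without any 1 ligated liver 0.

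Macrophage and Kupffer cell genes had 1 of 23 called, Gpnmb, where 1.08% of all genes were called. Their median difference was 0.34, and 5 rose without DEN replicate 2. The mean level of 6 markers of these cells was 8.13, 8.83 and 9.13 after DEN and 8.86, 9.03 and 8.81 after ligation, so that the groups overlapped. Genes of B and plasma cells had 0 of 16 called, 15 differences below 0 and a median of -0.89. Without DEN replicate 1, 6 of the 16 fell, and without any other single liver 0. The mean level of 5 B and plasma cell markers was 5.25, 6.86 and 7.21 in DEN livers and 5.11, 5.11 and 4.73 in ligated livers. Ms4a1, the B cell surface protein CD20, was at 4.88, 5.93 and 6.36 after DEN and at 3.76, 4.07 and 4.02 after ligation (limma adjusted p = 0.0774, and 0.00976 without DEN replicate 1). T and NK cell genes had 0 of 23 called and a median of -0.34, with 2 lower without DEN replicate 1 and 1 higher without DEN replicate 2. MHC class II genes had 0 of 7 called and a median of 0.07, which was 1.00 without DEN replicate 2 and 1.12 in livers labelled control. H2-DMa, which loads peptides onto class II molecules, was at 5.51, 9.33 and 6.65 after DEN and at 6.84, 6.73 and 6.53 after ligation. Its difference of -0.47 ranged from -1.29 to 0.62 when 1 liver was left out.

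Genes of bile duct epithelium were not called in either direction. Of 24 measured, 23 had a difference above 0, the median was 0.80 and ligation was higher without overlap for 6, where 10.5% of all genes were. Krt19, a keratin of bile duct cells, was at 5.23, 6.15 and 6.91 after DEN and at 8.10, 7.39 and 7.11 after ligation (1.44, SE 0.44, 95% interval 0.40 to 2.48, limma adjusted p = 0.215). Prom1, a surface protein of biliary progenitors, was at 4.67, 6.30 and 5.43 after DEN and at 7.46, 7.86 and 7.84 after ligation (2.25, SE 0.38, limma adjusted p = 0.0524). Epcam differed by 0.19 with a 95% interval from -2.33 to 2.71 (limma adjusted p = 0.965), and DEN replicate 2 lay above all ligated livers. The mean level of 5 cholangiocyte markers was 4.89, 6.99 and 5.60 in DEN livers and 7.0, 6.66 and 6.34 in ligated livers. Without DEN replicates 1, 2 and 3, 1, 10 and 1 of the 24 rose.

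Genes of bile acid handling changed one by one. Slc51b, a subunit of the transporter that exports bile acids across the basolateral membrane and a target of the bile acid receptor FXR, was at 5.20, 4.56 and 4.60 after DEN and at 6.97, 7.38 and 7.65 after ligation, 5.83-fold higher (2.54, SE 0.24, limma adjusted p = 0.0117). Its partner Slc51a was at 3.50, 2.97 and 3.34 after DEN and at 3.12, 3.41 and 3.12 after ligation, with the groups overlapping. These Slc51a values lay under 5, the bound used here for dim genes, and near those of Mapk9 (2.92 to 3.26). A change could be missed at such levels. Abcg5, which moves sterols into bile, was at 9.42, 9.48 and 9.35 after DEN and at 10.19, 10.09 and 10.41 after ligation (0.82, SE 0.12, limma adjusted p = 0.0367). Slc51b and Abcg5 were the 2 of 20 transporters called, where 0.77% of all genes rose, and the median was 0.21. Without DEN replicates 1, 2 and 3 the risen transporters numbered 1, 3 and 2, and 1 fell without DEN replicate 2 and without DEN replicate 3. Abcb11, the bile salt export pump, was at 11.16, 9.44 and 10.31 after DEN and at 11.14, 11.37 and 11.27 after ligation (limma adjusted p = 0.358). Slc10a1, the uptake transporter NTCP, differed by -0.46 (95% interval -0.87 to -0.05, limma adjusted p = 0.318). Nr1h4, which encodes FXR, was at 9.53, 9.33 and 9.61 after DEN and at 8.62, 8.71 and 8.62 after ligation (-0.84, SE 0.12, limma adjusted p = 0.0307). Nr0b2, the FXR target SHP, was at 8.06, 6.48 and 6.28 against 7.23, 7.18 and 7.52 and was not called. Among 17 genes of bile acid synthesis and conjugation 1 fell, where 0.313% of all genes fell. Their median was -0.38, and 1, 5 and 0 fell without DEN replicates 1, 2 and 3. The 1 called member was Cyp8b1, the sterol 12-alpha-hydroxylase that sets the share of cholic acid. Cyp8b1 was at 9.93, 8.68 and 9.14 after DEN and 7.06, 7.0 and 7.13 after ligation, 4.54-fold lower (-2.18, SE 0.29, limma adjusted p = 0.0296). Cyp7a1, the rate-limiting enzyme, was at 7.68, 8.32 and 10.05 after DEN and at 8.43, 8.15 and 8.14 after ligation, with DEN replicate 3 the highest (-0.44, 95% interval -1.75 to 0.86, limma adjusted p = 0.793), and the difference was 0.24 without that liver. Cyp7b1, oxysterol hydroxylase and a male-biased gene, spread from 10.73 and 9.21 to 7.17 in DEN livers and lay at 6.75, 7.01 and 6.76 after ligation (limma adjusted p = 0.291).

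Genes of fatty acid oxidation and of the receptor PPARalpha, which turns them on in fasting, were lower after ligation. Of 25 measured, 4 fell and 0 rose, where 0.313% of all genes fell. The median difference was -0.66, 24 were below 0, and ligation was lower without overlap for 17, where it was so for 9.39% of all genes. Acot1, an acyl-CoA thioesterase, was at 6.70, 6.85 and 7.14 after DEN and at 5.19, 5.21 and 5.11 after ligation (-1.72, SE 0.14, limma adjusted p = 0.00744). Vnn1, a pantetheinase, was at 10.07, 10.08 and 9.30 after DEN and at 7.48, 7.89 and 7.42 after ligation (-2.22, SE 0.24, limma adjusted p = 0.0172). Cyp4a14, a fatty acid omega-hydroxylase, was at 11.47, 11.25 and 11.64 after DEN and at 8.10, 9.35 and 9.56 after ligation (-2.45, SE 0.37, limma adjusted p = 0.0376). Aldh3a2, fatty aldehyde dehydrogenase, fell by 1.71 (SE 0.23, limma adjusted p = 0.0296). Pdk4, an inhibitor of pyruvate dehydrogenase and the 1 member with a difference above 0, was at 6.02, 5.11 and 5.80 after DEN and at 6.41, 6.72 and 6.52 after ligation (0.91, not called). Without DEN replicates 1, 2 and 3 the fallen members numbered 3, 16 and 2, and without ligated replicates 1, 2 and 3 they numbered 1, 0 and 0. Fatty acid and triglyceride synthesis had 0 of 25 called (median 0.08) and cholesterol synthesis 0 of 21 (median 0.09), and each had 1 lower without DEN replicate 2. Slc2a2, the glucose transporter GLUT2 of hepatocytes, was at 10.52, 10.44 and 10.85 after DEN and at 9.24, 9.43 and 9.30 after ligation (-1.28, SE 0.14, limma adjusted p = 0.0164).

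Cytochrome P450 genes of families 1 to 4, which oxidise drugs, steroids and fatty acids, had 4 of 37 fallen and 0 risen, with a median difference of -0.41. Ligation was lower without overlap for 14. Over all genes 0.313% fell and 9.39% were lower without overlap. Besides Cyp4a14 the fallen genes were Cyp2c54, Cyp1a2 and Cyp2d10. Cyp2c54 was at 10.22, 9.13 and 10.35 after DEN and at 7.48, 7.56 and 7.80 after ligation (-2.29, SE 0.32, limma adjusted p = 0.0308). Cyp1a2, which activates aromatic amines in pericentral hepatocytes, was at 12.01, 11.42 and 12.05 after DEN and at 10.45, 10.66 and 10.76 after ligation (-1.20, SE 0.19, limma adjusted p = 0.0473). Cyp2d10 fell by 0.72 (SE 0.11, limma adjusted p = 0.0423). The count of 4 became 0, 12 and 0 without DEN replicates 1, 2 and 3 and 1, 0 and 0 without ligated replicates 1, 2 and 3. Glucuronosyl- and sulfotransferases, which conjugate bile acids and drugs, had 1 of 17 fallen, Sult2a8, and a median of -0.78, and 7 fell without DEN replicate 2. NRF2 and glutathione genes had 1 of 25 risen, Hmox1, the haem oxygenase (1.25, SE 0.19, limma adjusted p = 0.0417), and 1 fallen, Mgst3, a microsomal glutathione transferase (-1.52, SE 0.23, limma adjusted p = 0.0411). Without DEN replicates 1, 2 and 3 the risen members numbered 0, 1 and 1 and the fallen members 1, 6 and 0. Secreted proteins and identity factors of hepatocytes had a median of -0.02 over 20 genes. The 1 called member, Cebpa, a hepatocyte transcription factor, was at 9.67, 9.50 and 9.66 after DEN and at 8.72, 8.86 and 8.88 after ligation (-0.79, SE 0.11, limma adjusted p = 0.0308), and 0, 3 and 1 fell without DEN replicates 1, 2 and 3. The mean level of 6 hepatocyte markers lay at 12.42, 12.12 and 12.39 after DEN and at 12.37, 12.39 and 12.37 after ligation.

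Interferon-inducible genes, antiviral effectors turned on by type I interferon, had 3 of 24 fallen and 0 risen after ligation, with a median difference of -0.77. Ligation was lower without overlap for 13. Over all genes these shares were 0.313% and 9.39%. Ifit1, which binds viral RNA, was at 8.73, 7.72 and 7.94 after DEN and at 5.70, 6.18 and 5.04 after ligation, 5.62-fold lower (-2.49, SE 0.36, limma adjusted p = 0.0342). Usp18, which removes ISG15 from proteins and dampens the interferon receptor, was at 8.62, 7.68 and 8.04 after DEN and at 6.13, 6.61 and 6.31 after ligation (-1.76, SE 0.25, limma adjusted p = 0.0342). Oas1a, an oligoadenylate synthetase, was at 6.71, 6.68 and 6.65 after DEN and at 5.91, 6.06 and 6.04 after ligation (-0.68, SE 0.10, limma adjusted p = 0.0367). Ifit3, a partner of Ifit1, was at 8.22, 7.75 and 8.54 after DEN and at 6.38, 7.01 and 6.12 after ligation with a limma adjusted p of 0.0523. Without DEN replicate 1 the count was also 3, but not of the same genes, since Oas1a then had a limma adjusted p of 0.0615. The count became 12 without DEN replicate 2, 0 without DEN replicate 3 and 0 without any 1 ligated liver. The promoters of Ifit1 (chr19:34640639-34640908, plus strand) and Oas1a (chr5:120907506-120907775, minus strand) are shown up to 20 bases past the start site for the interferon-stimulated response element, searched as GAAA, any 2 bases and GAAA, in capitals. This motif was added after the results were seen, was searched on both strands and occurred in 3.44% of all promoters in the table.
Ifit1: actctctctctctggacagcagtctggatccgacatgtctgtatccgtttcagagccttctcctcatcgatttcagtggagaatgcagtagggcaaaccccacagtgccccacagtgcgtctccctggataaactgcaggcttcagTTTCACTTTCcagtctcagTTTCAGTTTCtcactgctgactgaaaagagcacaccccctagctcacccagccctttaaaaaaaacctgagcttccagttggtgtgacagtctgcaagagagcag
Oas1a: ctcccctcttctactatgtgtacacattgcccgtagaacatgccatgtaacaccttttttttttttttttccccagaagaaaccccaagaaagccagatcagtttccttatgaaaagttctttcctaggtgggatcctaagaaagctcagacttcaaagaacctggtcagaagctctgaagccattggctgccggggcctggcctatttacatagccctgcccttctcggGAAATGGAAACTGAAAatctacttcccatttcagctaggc
In Ifit1 the 2 matches, both on the minus strand, began 104 and 85 bases before the start site. In Oas1a the 2 matches overlapped and began 20 and 14 bases before it. One of the 2 Sult2a8 entries also held a match, beginning 125 bases before its start site.

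Of the 46 gene lists, 26 held a called gene and 20 held none. The 855 different genes on them included 35 of the 145 genes that rose and 19 of the 59 that fell, so that 150 called genes were on no list. Without any 1 ligated liver, no list had more than 2 called members in either direction. Over all genes 0.77% rose, 0.313% fell and the groups did not overlap for 19.9%. Cell cycle genes had 0 of 27 called, although 26 were above 0 with a median of 0.53, and the groups did not overlap for 1. Without DEN replicate 2, 14 of the 27 rose and the median was 0.96, and without any other single liver 0 were called. Mki67, a marker of dividing cells, was at 5.24, 7.67 and 6.50 after DEN and at 7.20, 7.49 and 7.19 after ligation. AP-1 factors and immediate early genes had 1 of 21 risen, Gadd45g, and a median of 0.61, and 1, 6 and 2 rose without DEN replicates 1, 2 and 3. Jun, the substrate of JNK, was at 6.06, 7.38 and 6.38 after DEN and at 8.07, 7.02 and 7.25 after ligation (0.84, SE 0.40, limma adjusted p = 0.439). Fos, its dimer partner, was at 3.47, 4.68 and 4.82 against 7.75, 5.13 and 5.48, with ligated replicate 1 the highest. Oncofetal and liver tumour markers had 2 of 19 risen, Lcn2 and Akr1b8, an aldo-keto reductase that rose by 0.98 (SE 0.16, limma adjusted p = 0.0467), and a median of 0.35. Without DEN replicate 2, 9 rose and the median was 0.80, without DEN replicate 1, 1 rose, and without DEN replicate 3 or any 1 ligated liver, 0 rose. The JNK cascade and IKK complex had 0 of 17 called (median 0.04), NF-kB targets 0 of 22 (median 0.23), ER stress genes 0 of 21 (median -0.01) and sinusoidal endothelium 0 of 23 (median -0.06). Without DEN replicate 2 these lists had 3, 3, 2 and 4 risen, and 4 endothelial genes had fallen. Of all 18820 genes, 836 rose and 490 fell without that liver. Circadian clock genes had 1 of 15 fallen, Hlf, a clock output factor (-1.05, SE 0.16, limma adjusted p = 0.0376). Without DEN replicate 1, 3 clock genes rose and 3 fell. The clock activator Npas2 was at 6.67 in DEN replicate 1, near the 6.86 to 7.37 of ligated livers, and at 4.31 and 4.47 in the other DEN livers, and the time of day of collection is not given in the labels used here. Male-biased liver genes had 0 of 19 called and a median of -0.84, which was -1.24 without DEN replicate 3, when 3 fell. Exocrine pancreas genes had 0 of 14 called and a median of -0.02. Genes of adipose tissue and mesothelium had 1 of 14 fallen, Car3, and 0 risen. Of these, 12 were above 0, and the median was 0.58, against 0.09 in livers labelled control. Ligation was higher without overlap for 8, where it was so for 10.5% of all genes, and 5 rose without DEN replicate 2. Muscle and nerve genes had 2 of 13 risen, and 1, 4 and 1 rose without DEN replicates 1, 2 and 3. These 2 were Ncam1, an adhesion molecule also made by activated stellate cells (1.44, SE 0.15, limma adjusted p = 0.0137), and Actg2, smooth muscle gamma-actin (1.13, SE 0.19, limma adjusted p = 0.0496). Of the muscle genes not called, Myh1 was at 5.11 in ligated replicate 3 against 2.62 and 2.63 in ligated replicates 1 and 2. Acta1 was at 6.40 in ligated replicate 3 against 4.70 and 4.75.

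**Figure D4:**
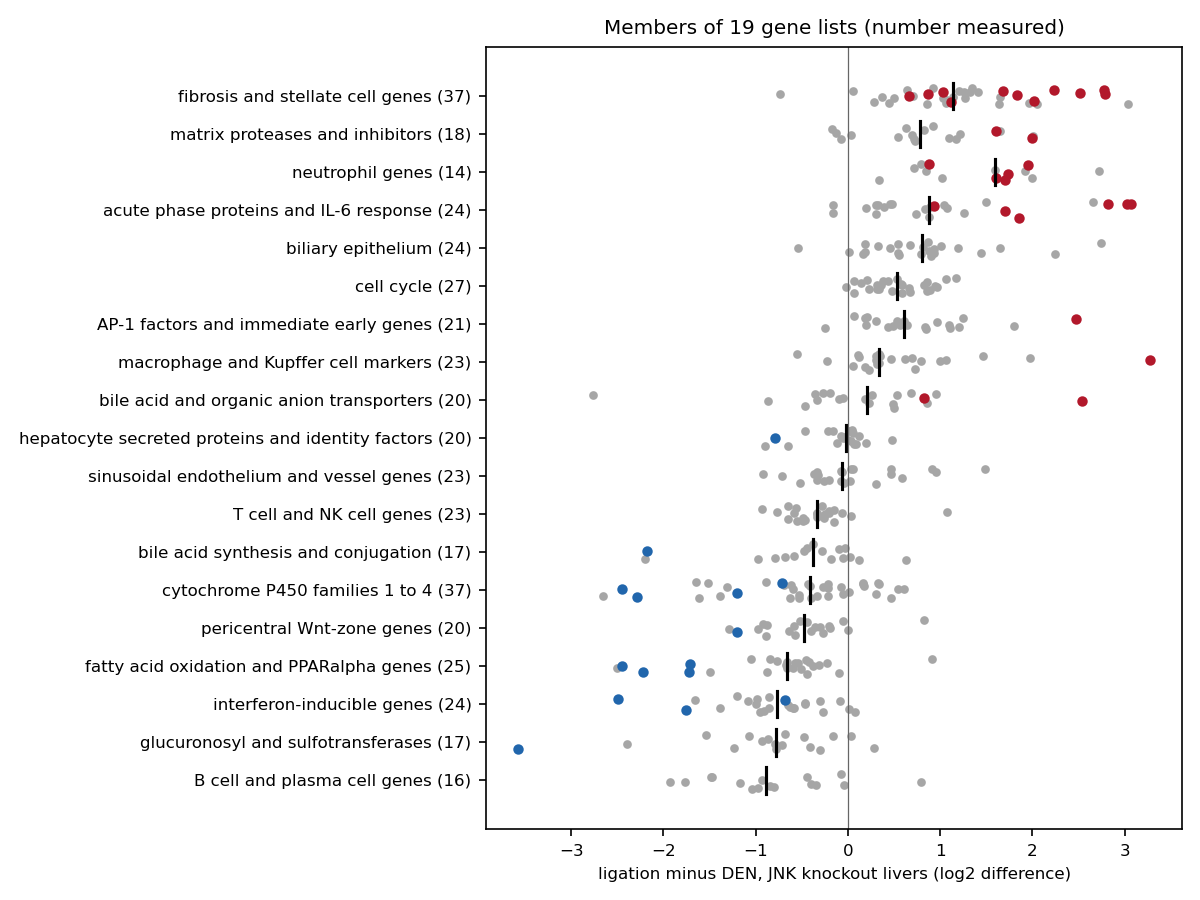
Difference between ligated and DEN-treated JNK knockout livers (x axis, log2) for each measured member of 19 gene lists, with the number measured in parentheses. Red points are called higher, blue called lower and grey not called, and black bars are medians; the fibrosis, neutrophil and acute phase lists lie to the right with medians of 1.14, 1.60 and 0.88, and the interferon and PPARalpha lists to the left with medians of -0.77 and -0.66.

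In livers labelled control the same comparison of 3 ligated with 3 DEN livers called 327 genes higher (1.74%) and 139 lower (0.739%). No liver was shared between the genotypes. Of the 204 genes called in JNK knockouts, 59 were called in controls in the same direction (48 higher and 11 lower), 28.9% of the JNK calls and 12.7% of the control calls, and 0 in the opposite direction. In 189 of the 204 the difference in controls had the same sign. The share of all genes with the same sign was not counted, so this cannot be read as particular to the called genes. Across all genes the differences in the genotypes correlated with r = 0.569 and rho = 0.414, as a description, since genes are not independent replicates. In controls 26 of the 37 fibrosis genes were higher, with a median of 1.38, and Sfrp1 differed by 3.64 (limma adjusted p = 0.0228). Orm2 (2.60), Slc51b (2.85), Lox (2.85) and Retsat (-2.46) were also called in controls. Neutrophil genes had 1 member called in controls and acute phase genes 2, but these counts do not show a difference between genotypes, which is tested below.

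The difference between ligation and DEN itself differed between the genotypes for 9 genes (0.0478%) by the limma interaction term over 12 livers, and 1338 genes had an unadjusted p under 0.05. Of these 9, A2m, Efna3, Slc2a2 and Gpd1l were also called within the JNK knockouts. As given above, Mapk9 was as low in the livers labelled control as in the JNK knockouts, while Mapk8 was higher in them. The interaction term therefore does not set JNK knockouts against livers with high Mapk9. Efna3, a ligand of Eph receptors, was at 6.45, 5.13 and 5.44 after DEN and at 8.38, 8.10 and 8.65 after ligation in JNK knockouts, and at 5.66, 5.19 and 6.17 and then 4.73, 4.68 and 4.79 in controls (interaction 3.64, SE 0.45, limma adjusted p = 0.0177). A2m was at 4.54, 5.12 and 4.24 in ligated controls, below its 7.19 to 8.45 in ligated JNK knockouts (interaction 3.60, SE 0.52, limma adjusted p = 0.0459). Mmrn1, a multimerin of endothelium, was at 3.56, 3.59 and 4.13 after DEN and at 6.49, 6.03 and 5.02 after ligation in JNK knockouts, and at 2.44, 2.65 and 2.45 in ligated controls (interaction 3.08, SE 0.43, limma adjusted p = 0.0351). For these 3 genes the ligated JNK knockouts stood above the other 9 injured livers. Slc2a2 was at 10.71, 10.74 and 10.82 in ligated controls, close to its levels after DEN, and lower in ligated JNK knockouts as given above (interaction -1.18, SE 0.16, limma adjusted p = 0.0351). Gpd1l, a glycerol-3-phosphate dehydrogenase-like protein, was at 6.37, 6.65 and 6.76 after DEN and at 5.81, 5.82 and 5.77 after ligation in JNK knockouts, and at 7.19, 7.25 and 7.14 in ligated controls (interaction -1.35, SE 0.17, limma adjusted p = 0.0177). For the other 4 genes the ligated controls stood apart. Ligated controls also stood apart for Efna3 and Mmrn1, below the other 9 injured livers, and for Gpd1l, above them. DEN-treated controls were at 3.48, 3.34 and 3.70 for Mmrn1 and at 6.47, 6.73 and 6.70 for Gpd1l. Abhd1, a hydrolase-fold protein, was at 5.75, 5.79 and 5.67 in ligated JNK knockouts and at 8.49, 9.17 and 8.91 in ligated controls (interaction -3.15, SE 0.26, limma adjusted p = 0.00133). Abhd1 and Mybl1 kept their interaction call without each of the 12 livers in turn, while Efna3 kept it in 8 of 12, Gpd1l in 7, Catspere2 in 6, Chrm3 in 5, Mmrn1 and Slc2a2 in 3 and A2m in 2. With all 24 arrays in the fit, Mybl1 and Mmrn1 lost the call (limma adjusted p = 0.396 and 0.113), as did Slc2a2 with arrays centred on their median (0.135) and A2m with dim genes left out (0.0723). Mybl1, Catspere2, Chrm3 and Mmrn1 were themselves dim (a mean under 5) and were not tested there.

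**Figure D5:**
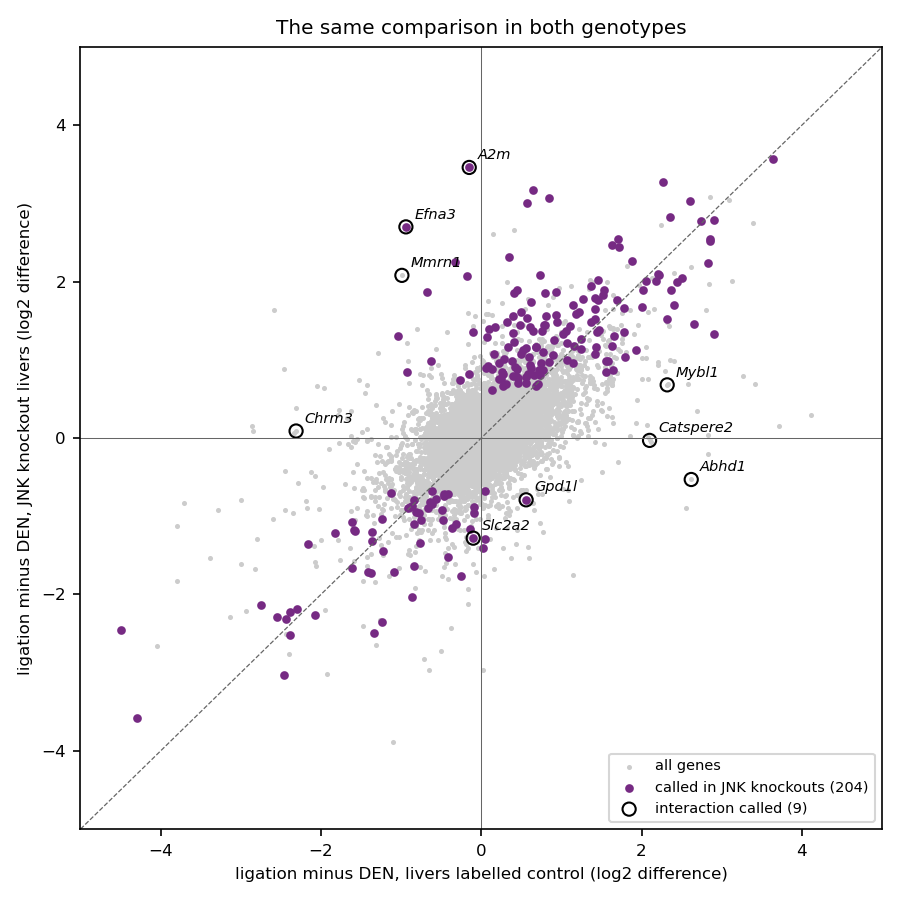
Difference between ligation and DEN in livers labelled control (x axis, log2) against the same difference in JNK knockout livers (y axis, log2), 1 point per gene, with 3 livers in each of 4 groups. Purple points are the 204 genes called in JNK knockouts and black rings the 9 genes with a called interaction. The dashed line marks equal differences. A2m, Efna3 and Mmrn1 lie high and left of the line, Abhd1, Catspere2 and Mybl1 to its right. Genotype and cohort cannot be told apart.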

How the data were processed

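RNA of 24 mouse livers was measured on whole-transcript arrays, 1 per liver. The authors deposited log2 expression levels made with RMA, which corrects background, normalises quantiles and summarises probes, per the submitters' processing notes, and these values ran from 0.68 to 13.48. The RMA program and which arrays entered it jointly are not stated in these sources. The values carry no detection call, and precision is limited by the number of arrays.

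Of 35556 probe sets, 21218 had 1 gene symbol in the probe table, 1881 several and 12457 none. Of the first, 21185 matched RefSeq (GRCm38.p6) by Entrez identifier. They stood for 18820 genes. For 1386 genes with several probe sets, the one with the highest mean over 24 arrays was used.

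Groups came from the sample titles. Ligation was compared with DEN in JNK knockouts by limma 3.58.1 in R 4.3.3 on their 6 arrays, two-sided, with Benjamini-Hochberg adjustment over all genes. The livers labelled control were fitted likewise, and the genotypes compared by an interaction term over 12 arrays. An exact permutation test of 3 against 3 cannot go below 0.1, so none is given. The labels name no test.

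The comparison, the 46 gene lists and the promoters were chosen with earlier results of these data known. Named genes were Mapk8, Mapk9 and Ikbkg, called genes without overlap with the 15 largest differences in each direction, the called list members of smallest p (4 per list at most, or 2 as values where none was called), cell type markers and the called interactions. Names that are only predicted-gene, RIKEN or small RNA identifiers were left out. The genes that set single DEN livers apart, further list members that just missed or bore on a pathway, and the interferon motif were chosen after their values were seen. Genes without a matched probe set were not analysed here. The fit was tested on simulated data. Alternatives changed the normalisation, the filter on dim genes (mean under 5), the arrays in the fit, the probe set rule, the variance model, array weights and the replicate block, and left out each liver. 2 settings without DEN livers were added after seeing the data.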

Additional observations from a re-analysis of the deposited data

Results flagged for a closer look

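For 9 genes the difference between ligation and DEN was not the same in JNK knockouts and livers labelled control, by the limma interaction over 12 livers (adjusted p under 0.05). The interaction was 3.64 for Efna3, 3.60 for A2m, 3.08 for Mmrn1 and 2.41 for Chrm3, and -3.15 for Abhd1, -2.14 for Catspere2, -1.64 for Mybl1, -1.35 for Gpd1l and -1.18 for Slc2a2.

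Chrm3, the muscarinic receptor M3, was at 5.28, 5.27 and 4.38 after DEN and 4.94, 5.13 and 5.15 after ligation in JNK knockouts, against 5.89, 6.15 and 6.32 and then 3.92, 3.86 and 3.64 in controls (limma adjusted p = 0.0212). Mybl1, a MYB family transcription factor, was at 3.78, 4.01 and 4.05 and then 4.52, 4.84 and 4.53 in JNK knockouts, against 6.27, 6.37 and 6.37 in ligated controls (limma adjusted p = 0.00504). Catspere2, which is related to a sperm calcium channel subunit, was at 2.85, 2.99 and 2.90 in ligated JNK knockouts and 5.20, 5.12 and 4.74 in ligated controls (limma adjusted p = 0.0177). For these 3 genes and Abhd1 the ligated controls stood apart from the other 9 injured livers. The same held for Efna3, Gpd1l and Mmrn1, for which the ligated JNK knockouts stood apart too. The knockouts and controls of each injury differ in cohort as well as in genotype, and these cannot be told apart.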

How the results depend on the processing

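In JNK knockouts, leaving out 1 liver gave 2 to 836 genes higher (145 with all livers) and 1 to 490 lower (59). Array weights gave 1337 and 1145, with all 204 among them and the share higher moved from 71.1% to 53.9%. All 24 arrays in the fit gave 90 lower. The 12 injured livers without JNK DEN replicates 2 and 3, where the lone DEN liver was assumed to vary like the other groups, gave 710 and 226, 112 of them among the 204. Quantile normalisation, centring, the filter on dim genes, the mean of probe sets and a trended robust variance kept both counts within 1.5 times. In livers labelled control, leaving out 1 liver gave 45 to 610 higher (327) and 11 to 248 lower (139). For the interaction it gave 0 to 19 higher (4) and 2 to 8 lower (5), and leaving out dim genes gave 1 and 3.

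The replicate numbers did not pair the livers: deviations of same-numbered livers from their group means correlated with r = -0.14, 0.027 and 0.097 in JNK knockouts and -0.148, -0.053 and -0.193 in controls. With the replicate block, 1 gene was higher and 0 lower in JNK knockouts, and 82 and 27 in controls.

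Of 60 named genes called in JNK knockouts, none changed sign under these settings. Their calls held for 60 without DEN replicate 2, 43 without DEN replicate 1, 30 without DEN replicate 3, 6, 7 and 2 without ligated replicates 1, 2 and 3, 47 with 12 arrays, 44 with 24 and 51 with arrays centred. Of the 102 named genes not called, 22 changed sign when 1 liver was left out. Among them were H2-DMa, Epcam (0.19 with all livers, -0.75 to 1.53) and 17 other cell type markers. Cyp7a1, outside this count, ranged from -0.95 to 0.24. The cause of these changes was not tested. Mapk9 was at -0.08 without JNK DEN replicates 2 and 3. Ikbkg, at 0.04 with all livers, ranged from -0.10 (without DEN replicate 3) to 0.23 (without DEN replicate 1) when 1 liver was left out, and was at -0.02 without DEN replicate 2, -0.10 with 12 arrays and without DEN replicate 3, -0.03 with arrays centred and -0.35 without DEN replicates 2 and 3.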

Other observations

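Of the called genes, 150 were on no gene list, and those named here were chosen after their values were seen. Fmod, the collagen-binding proteoglycan fibromodulin, was at 5.08, 5.09 and 4.97 after DEN and at 6.72, 6.86 and 6.66 after ligation in JNK knockouts (1.70, SE 0.11, limma adjusted p = 0.0062). Vcan, a matrix proteoglycan, was at 3.49, 3.74 and 3.21 after DEN and at 5.59, 5.18 and 5.70 after ligation (2.01, SE 0.19, limma adjusted p = 0.0126). Plod2, a collagen lysyl hydroxylase, rose by 1.78 and Serpinh1, the collagen chaperone HSP47, by 1.37 (limma adjusted p = 0.0317 and 0.048). Slc13a5, a citrate transporter, was at 5.71, 5.20 and 5.35 after DEN and at 7.70, 7.24 and 7.47 after ligation (2.05, SE 0.18, limma adjusted p = 0.0101).

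Cyp26a1, which degrades retinoic acid, was at 5.42, 3.97 and 5.08 after DEN and at 7.37, 6.99 and 7.04 after ligation (2.31, SE 0.36, limma adjusted p = 0.0415), opposite in direction to Retsat. Epo, which encodes erythropoietin, was at 2.63, 2.52 and 2.58 after DEN and at 3.63, 3.53 and 3.51 after ligation (0.98, SE 0.10, limma adjusted p = 0.0137). Every Epo value lay under 5, the bound used here for dim genes, and the values carry no detection call. Ankrd37, known as a target of hypoxia-inducible factor, was at 4.32, 4.40 and 4.59 after DEN and at 5.63, 5.55 and 6.06 after ligation (1.31, SE 0.16, limma adjusted p = 0.0251). The groups did not overlap for these genes, as for every called gene. Among genes that fell, Akr1c14, Akr1c19 and Akr1c20, aldo-keto reductases of steroid metabolism, had differences of -1.32, -1.18 and -1.34 (limma adjusted p = 0.0249, 0.0135 and 0.0143). Angptl8, a hepatokine that inhibits lipoprotein lipase, was at 9.47, 9.91 and 9.56 after DEN and at 8.37, 8.07 and 8.43 after ligation (-1.36, SE 0.16, limma adjusted p = 0.0235), opposite in direction to Lpl.

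Of the called genes, 17 had a mean at or under 5 in both groups. Without an uninjured JNK knockout liver, and with 28 against 40 days in separate mice, a difference cannot be assigned to ligation or to DEN. DEN replicate 3 also differed from the other livers in Xist and Y-linked genes.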
